A study of Mus musculus with 2 samples.

Results

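The DNA replication machinery was examined through 39 genes listed for origin licensing, the replicative helicase and its activation, the sliding clamp and its loader, the polymerases, Okazaki fragment processing, nucleotide supply and chromatin behind the fork. The genes were taken by symbol with no cut on measured level, but the list was chosen with earlier results of these data known. Of the 39, 38 were found among the 20002 genes measured. The level of Orc1, the largest subunit of the origin recognition complex, was not analysed here.

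The data were RNA-seq of whole kidneys from mice treated to lower Regnase-2 (Reg-2 CKO) and from control mice, with 1 library per group, so no difference given here could be checked against replicates and no test between groups was made. C57BL/6J mice were injected through the tail vein at 11 weeks of age, the Reg-2 CKO mice with AAV9 carrying shRNA against Regnase-2 and the controls with AAV9 that the methods describe both as an empty vector and as a control shRNA. Kidneys were taken at 14 weeks of age per the RNA-seq methods and at 16 weeks per the AAV9 methods. The label reads conditional knockout, but the AAV9 methods describe no Cre-driven deletion, and AAV9 has a stated preference for proximal tubule cells. RNA came from left kidney tissue, and a single mouse or a pool as its source was not stated.

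The deposited whole numbers went no lower than 35 for control and 51 for CKO. Floors of 34 and 50 were subtracted, which left totals of 38851231 and 43588721. Values below are these floor-subtracted values, read as sequencing reads. That reading is an inference, since the deposited values are labelled as normalized counts. The 95% Clopper-Pearson intervals in parentheses depend on this reading and cover counting error only. For ratios the CKO values were scaled by 0.667, the median of control divided by CKO across genes, and log2 ratios carry a pseudocount of 1. Paired values are given unscaled, control first.

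Zc3h12b, the gene of Regnase-2, had values of 47 and 59, and its log2 ratio of -0.25 (-0.83 to 0.33) became 0.16 with equal totals. No difference in the targeted mRNA was detectable at this depth. It therefore does not check the labels, and the treated library is called the library labelled CKO throughout.

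Before a cell copies its DNA, the origin recognition complex, Cdc6 and Cdt1 load the MCM helicase onto origins, and in S phase Cdc45 and GINS turn the loaded helicase into an active one. Polymerase alpha-primase starts each strand, the RFC clamp loader places the PCNA ring, and polymerases epsilon and delta extend the strands while ribonucleotide reductase and related enzymes supply the precursors. Many of these genes are transcribed under E2F factors in late G1 and S phase, and in the adult kidney, where most tubule cells are quiescent, proliferation is known to increase during tubule repair.

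Promoter sequences are shown because E2F control is the best-known shared feature of these genes. RefSeq promoter windows of GRCm38.p6, from 250 bases before to 50 bases after a start, were matched for 32 of the 39 listed genes. Mcm4, Gins1, Gins2, Gins4, Rfc2, Prim2 and Pole had no matched window. Both strands were searched for TTTGGCGC, TTTGCCGC, TTTCGCGC and TTTCCCGC, which spell the E2F consensus, and for TTTGAA and TTCGAA, called CHR words after the cell cycle genes homology region of mitotic promoters. Each run of 30 bases reads 5′ to 3′ on the strand of its gene, with the word in capitals.
Cdc6: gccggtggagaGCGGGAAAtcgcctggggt
Mcm6, far word: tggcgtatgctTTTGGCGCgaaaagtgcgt
Mcm6, near word: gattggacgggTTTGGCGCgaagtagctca
Mcm5: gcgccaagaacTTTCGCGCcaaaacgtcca
Pola1: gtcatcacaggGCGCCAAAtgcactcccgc
Uhrf1: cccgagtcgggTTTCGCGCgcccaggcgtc
Mcm7: aatttcgaaccGCGGGAAAcagggtgtcca
Gins3: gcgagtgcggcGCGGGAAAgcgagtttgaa
Cdk1, CHR word: ctgattggctccTTTGAAcgtctacgtgca

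The Cdc6 run lies on the plus strand at chr11:98908002-98908031, with its word 138 bases before its RefSeq start. Distances here are to RefSeq starts, which can differ from GENCODE ones, and the runs of Cdc6, Uhrf1, Mcm7 and Gins3 lie within the GENCODE spans of these genes. The Mcm6 runs lie on the minus strand at chr1:128359797-128359826 and chr1:128359734-128359763, with words 110 and 47 bases before the start. The far Mcm6 word overlaps a further E2F word that begins 106 bases before the start. Mcm5 shows the same arrangement on the plus strand at chr8:75109345-75109374, where words 153 and 149 bases before the start overlap. The Pola1 run is at chrX:93632275-93632304 on the minus strand, 138 bases before the start. The Uhrf1 run is at chr17:56304117-56304146 on the plus strand, 185 bases before an annotated start. The log2 ratios of these genes were 1.27 for Pola1, 1.26 for Mcm5 and above 2 for the others. Mcm7, at chr5:138172030-138172059 on the minus strand, and Gins3, at chr8:95633507-95633536 on the plus strand, are shown because they held a word 165 and 41 bases before a start but had log2 ratios of only 0.29 and 0.31. Both runs also hold a CHR word in lower case, TTCGAA 173 bases before the start for Mcm7 and TTTGAA 28 bases before it for Gins3. Cdk1, a mitotic gene at chr10:69352966-69352995 on the minus strand, is shown for its CHR word 71 bases before the start. Its window also held a further CHR word 15 bases before the start. The only E2F word of the mitotic windows was in this window too, 131 bases before the start.

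An E2F word was present in 14 of the 37 windows of the DNA replication genes, the window of Orc1 among them (37.8%). The share was 3.39% of 17291 windows of the genes measured and 2.26% of all 32851 windows. It was 21.5% of 65 windows of other replication genes and 5.88% of 17 windows of mitotic genes. For the E2F factors and pocket proteins it was 42.9% of 14 windows, and for S phase cyclins and kinases 66.7% of 3. An E2F word was in 0 of 11 windows of other DNA polymerases, in 6.25% of 16 windows of recombination and Fanconi genes and in 13.3% of 15 windows of other repair genes. CHR words were in 16.2% of the windows of the DNA replication genes, 14.8% of those of the genes measured and 82.4% of the mitotic ones. Shorter E2F words without the leading T were in 67.6% of the windows of the DNA replication genes and 14.4% of those of the genes measured, and CCAAT was in 56.8% and 37.1%. A match describes the letters of a window and is neither a bound site nor a cause.

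Among the DNA replication genes analysed, the 13 with an E2F word had a median log2 ratio of 1.19, and 9 of them reached 2-fold. Without Cdc6, whose control value was under the filter of 10, 8 of 12 did, with a median of 1.11. The 18 with a window but no such word had a median of 0.44, and 2, Rrm2 and Chaf1b, reached 2-fold. With equal totals the counts were 10 of 13 and 6 of 18. The shorter words gave 11 of 21 genes with a word and 0 of 10 without. CCAAT gave 7 of 18 and 4 of 13, with medians of 0.59 and 0.68, and CHR words gave 1 of 6 and 10 of 25, with medians of 0.28 and 0.81. Leaving out Cdc6 gave 10 of 20 with a shorter word, 3 of 12 without CCAAT and 9 of 24 without a CHR word. Across all genes kept the E2F words gave no such gap, with 12.6% of 530 genes holding an E2F word and 13.3% of 12194 genes without at 2-fold or more. Other replication genes gave 4 of 13 with a word and 6 of 39 without. Genes without an E2F word also reached 2-fold in 14 of 15 cases among mitotic genes, with a median of 2.83. This was 13 of 14, with a median of 2.84, without genes kept only through the library labelled CKO. Among recombination and Fanconi genes without an E2F word, 7 of 12 reached 2-fold, with a median of 1.28. The DNA replication genes with a word also had lower control values, with a median of 115 against 240.5. These divisions were made after the ratios were seen and were not tested.

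**Figure D1:**
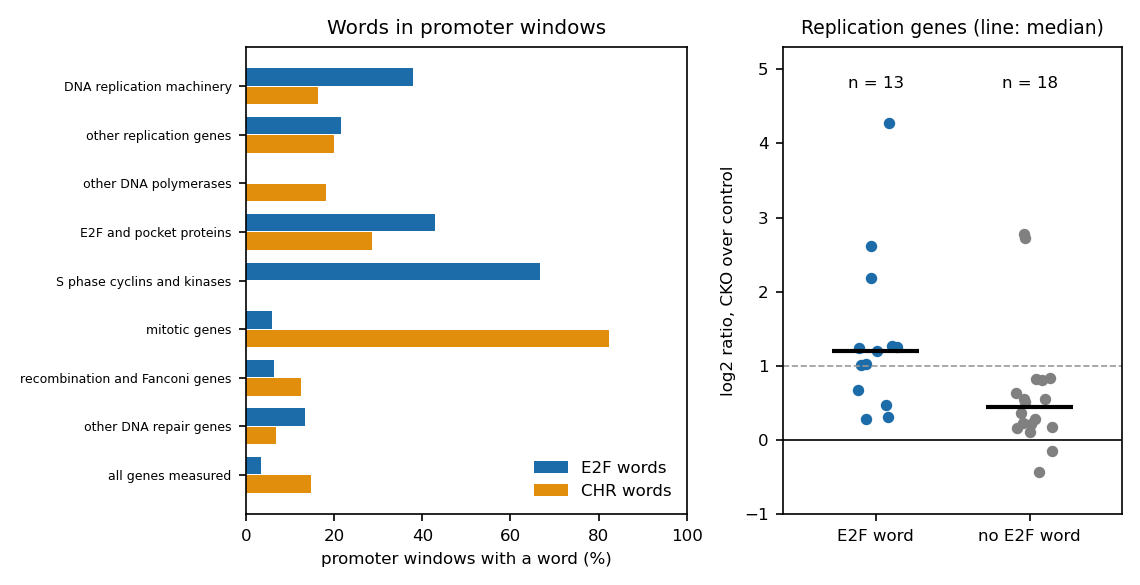
Left, percent of promoter windows with an E2F word or a CHR word for 8 gene lists and all genes measured. Right, log2 ratio of each DNA replication gene with and without an E2F word, with medians of 1.19 and 0.44 as lines and 2-fold as a dashed line.

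All 38 genes passed the filter of at least 10 scaled values in 1 library, Cdc6 only through the library labelled CKO, as did 841 of all genes kept. Of the 38, 13 were higher by 2-fold or more in the library labelled CKO, against 13.4% of the 17469 genes kept by the filter, and 0 were lower by 2-fold or more, against 5.35%. Without the genes kept only through the library labelled CKO, 12 of 37 were higher by 2-fold, against 10.4% of 16628. A log2 ratio above 0 was seen for 35 of the 38, against 51.5% of all genes kept. The median log2 ratio was 0.61, against 0.02 for all genes kept. Mcm10, Rfc2 and Dut were below 0, but Rfc2 and Dut were above 0 with equal totals, and all 3 were above 0 under the deposited values. More replicating cells and more RNA per cell cannot be told apart in bulk kidney.

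Summed over the 38 genes, the values were 10657 and 23195. This was 0.0274% of the control total (0.0269 to 0.0280) and 0.0532% of the CKO total (0.0525 to 0.0539). The scaled sum was higher by 1.45-fold (1.42 to 1.48), and by 1.94-fold with equal totals.

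The size of the increase depended on the scaling. With equal totals, 20 of the 38 reached 2-fold, against 21.9% of all genes then kept, and the median was 1.03. Under the deposited values 23 did, against 17.9%, with a median of 1.11. These settings also moved the median of all genes kept, by 0.42 and 0.55, and the higher share of all genes past 2-fold, from 71.4% to 89.9% and 96.5%. Relative to the median of all genes, the DNA replication genes lay 0.59 higher under the main scaling, 0.59 with equal totals and 0.51 under the deposited values.

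Counting intervals lay wholly above 0 for 30 genes, spanned 0 for 6 and lay wholly below 0 for 2, Mcm10 and Rfc2, against shares of 34.7% above and 33.6% below among all genes kept. They lay wholly above 2-fold for 7 genes, Cdc6, Mcm4, Mcm5, Mcm6, Rrm2, Uhrf1 and Chaf1b, against 7.30% of all genes kept.

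**Figure D2:**
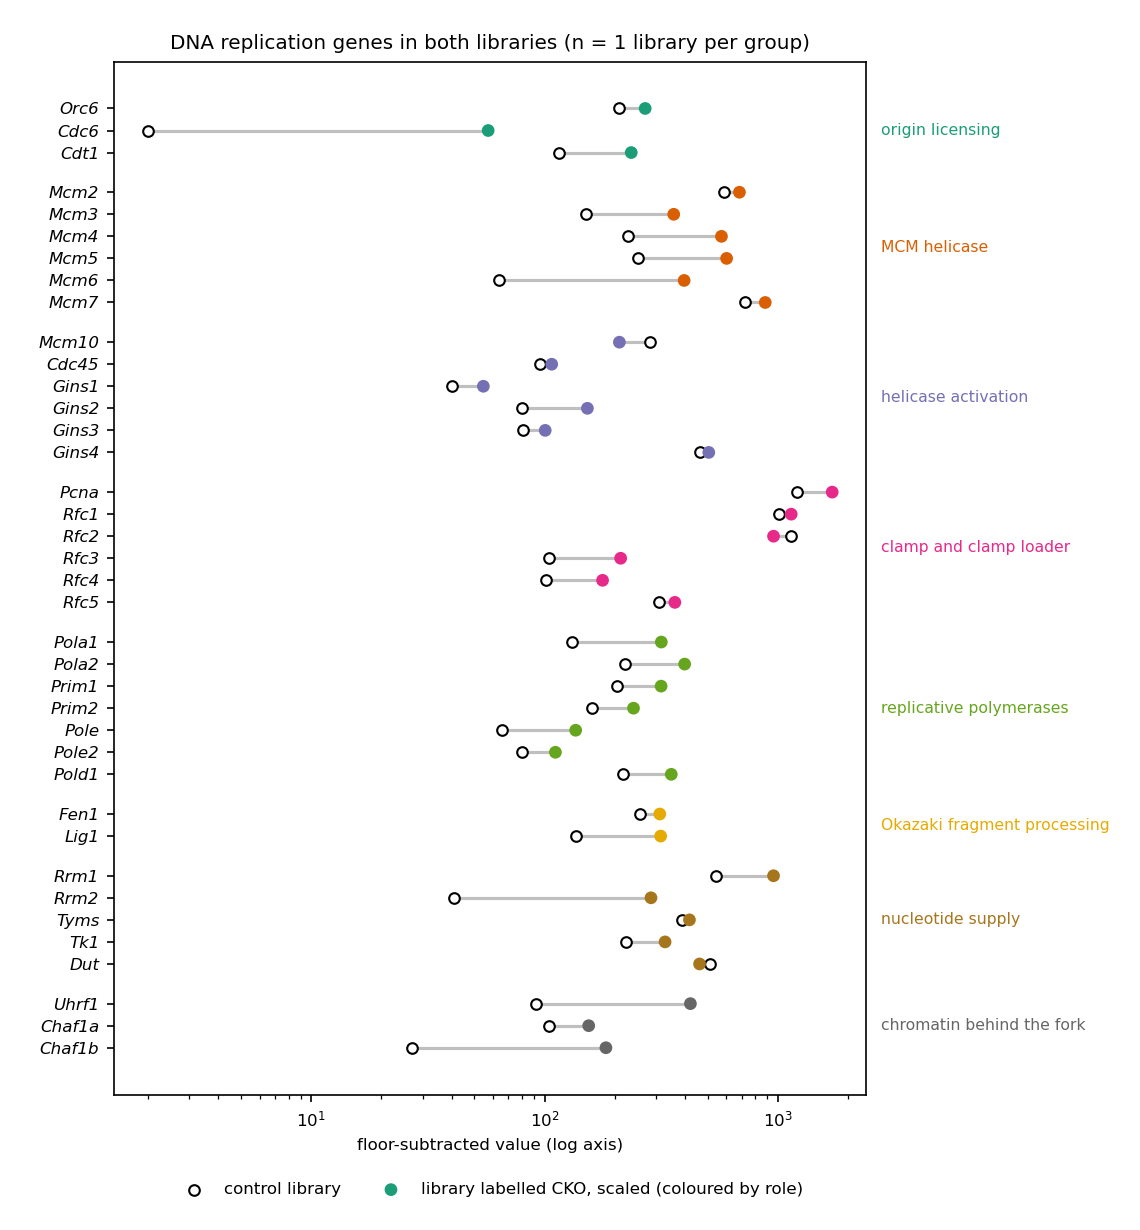
Floor-subtracted value of each of the 38 DNA replication genes on a log axis, open circles for the control library and filled circles for the scaled library labelled CKO, grouped and coloured by role. Most filled circles lie to the right of the open ones, the gap is widest for Cdc6, and Mcm10, Rfc2 and Dut lie the other way under this scaling.

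Of the origin licensing factors analysed, Cdc6 and Cdt1 reached 2-fold and Orc6 did not. Cdc6, the ATPase that helps bring the helicase to the origin (Entrez Gene 23834, chromosome 11 from 98907801 to 98923940 by GENCODE M21 on GRCm38, the source of each location below), had values of 2 and 86 and a log2 ratio of 4.28, or 1.89 under the deposited values and 2.49 with a pseudocount of 10. Without the pseudocount its ratio was 28.7, with a 95% interval of 7.70 to 241, so its size is known only within wide limits. Cdt1, the partner of Cdc6 in loading, had values of 115 and 353 and a log2 ratio of 1.03 (0.73 to 1.35), or 0.97 with a pseudocount of 10. Orc6, the smallest subunit of the origin recognition complex, had values of 209 and 405 and a log2 ratio of 0.37 (0.13 to 0.62).

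All 6 subunits of the hexameric helicase were higher, 4 of them by 2-fold or more, but by very different ratios. Mcm6, encoded on chromosome 1 from 128331590 to 128359664 (Entrez Gene 17219), had values of 64 and 595 and a log2 ratio of 2.61 (2.26 to 3.03). Mcm4 had values of 229 and 860, at 1.32 (1.11 to 1.54). Mcm5 had values of 252 and 905, at 1.26 (1.06 to 1.47). Mcm6 stood apart from every other subunit beyond counting error. Mcm3 had values of 151 and 537, at 1.24 (0.98 to 1.52), within the counting error of Mcm4 and Mcm5. Mcm7 had values of 723 and 1325, at 0.29 (0.16 to 0.42), and Mcm2 had values of 589 and 1027, at 0.22 (0.07 to 0.37). These subunits with the smallest ratios had the highest control levels per kilobase of the hexamer.

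None of the 6 activation genes reached 2-fold under the main scaling, and only Gins2 did with equal totals. Gins2, a subunit of the GINS tetramer, had values of 80 and 229 and a log2 ratio of 0.92 (0.56 to 1.32), or 1.34 with equal totals. Gins1 had values of 40 and 82, at 0.44 (-0.11 to 1.03). Gins3 had values of 81 and 151, at 0.31 (-0.09 to 0.72), and Gins4 had values of 465 and 759, at 0.12 (-0.05 to 0.29). Of this tetramer only Gins2 was higher beyond counting error under the main scaling. Cdc45, which joins GINS on the helicase, had values of 96 and 161, at 0.16 (-0.21 to 0.54). Mcm10, needed for origin firing, had values of 282 and 314, at -0.43 (-0.67 to -0.19), or -0.01 with equal totals and 0.20 under the deposited values.

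Pcna, the sliding clamp, had the highest level per kilobase of the 38 genes in both libraries, with values of 1203 and 2566 and a log2 ratio of 0.51 (0.41 to 0.61). Its interval lay between 0 and 2-fold. Among the loader subunits, Rfc3 had values of 105 and 318, at 1.01 (0.69 to 1.35), or 0.95 with a pseudocount of 10. Rfc4 had values of 101 and 266, at 0.81 (0.48 to 1.16). Rfc3 and Rfc4 lay above the other loader genes, of which Rfc1 is the large subunit. Rfc5 had values of 309 and 543, at 0.23 (0.02 to 0.43). Rfc1 had values of 1013 and 1712, at 0.17 (0.06 to 0.29). Rfc2 had values of 1140 and 1438, at -0.25 (-0.36 to -0.14), or 0.17 with equal totals. The small subunits Rfc2 to Rfc5 also serve in alternative clamp loaders.

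All 7 polymerase genes had intervals above 0, with log2 ratios from 0.47 for Pole2 to 1.27 for Pola1. Pola1, the catalytic subunit of polymerase alpha, had values of 131 and 475 and a log2 ratio of 1.27 (0.99 to 1.56). Its accessory subunit Pola2 had values of 222 and 598, at 0.84 (0.62 to 1.07). The primase subunits were close to each other. The catalytic Prim1 had values of 204 and 474, at 0.63 (0.39 to 0.88), and Prim2 had values of 160 and 361, at 0.59 (0.32 to 0.87). Pole, the catalytic subunit of the leading strand polymerase, had values of 66 and 204, at 1.03 (0.64 to 1.47), or 0.94 with a pseudocount of 10. Its subunit Pole2 had values of 80 and 167, at 0.47 (0.08 to 0.88). The catalytic subunits Pola1 and Pole had higher ratios than Pola2 and Pole2, with intervals that overlapped. Pold1, the catalytic subunit of the lagging strand polymerase delta, had values of 218 and 524, at 0.68 (0.45 to 0.91).

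Lig1, the ligase that seals the fragments, had values of 137 and 472 and a log2 ratio of 1.19 (0.92 to 1.48). Fen1, the nuclease that removes the flap before sealing, had values of 257 and 468 and a log2 ratio of 0.28 (0.06 to 0.50). The intervals of these successive enzymes did not overlap.

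Rrm2, the small subunit of ribonucleotide reductase that is made in S phase (Entrez Gene 20135, chromosome 12 from 24708241 to 24714146), had values of 41 and 429 and a log2 ratio of 2.77 (2.34 to 3.30). Rrm1, the large subunit, had values of 544 and 1438, at 0.82 (0.67 to 0.96). Tk1, which salvages thymidine, had values of 224 and 493, at 0.55 (0.32 to 0.79). Only these 3 of the 5 supply genes were higher beyond counting error under the main scaling. Tyms, which makes thymidylate, had values of 388 and 627, at 0.11 (-0.08 to 0.29), or 0.53 with equal totals. Dut, which keeps uracil out of DNA, had values of 512 and 693, at -0.15 (-0.32 to 0.02), or 0.27 with equal totals.

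Uhrf1, which binds hemimethylated DNA and recruits the maintenance methyltransferase (Entrez Gene 18140, chromosome 17 from 56303321 to 56323486), had values of 92 and 633 and a log2 ratio of 2.19 (1.88 to 2.53). Chaf1b, a subunit of the histone chaperone CAF-1 (Entrez Gene 110749, chromosome 16 from 93883901 to 93906115), had values of 27 and 275, at 2.72 (2.19 to 3.39). Its partner Chaf1a had values of 105 and 232, at 0.55 (0.22 to 0.91). The CAF-1 subunits differed beyond counting error, as the reductase subunits did.

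**Figure D3:**
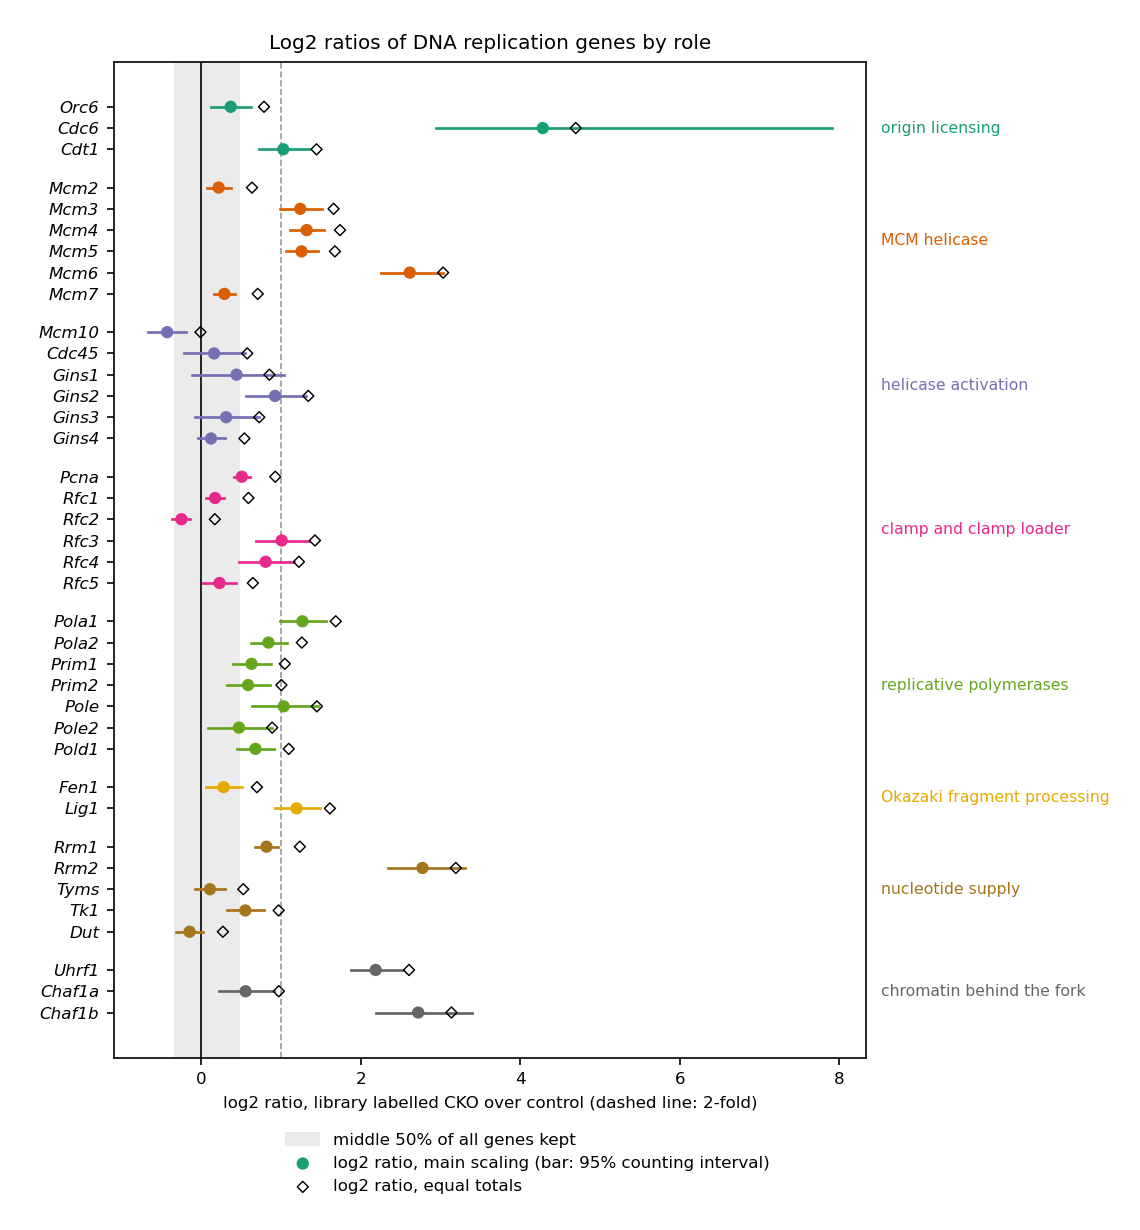
Log2 ratio of the library labelled CKO over control for each of the 38 DNA replication genes by role, with 95% counting intervals as bars, equal totals as open diamonds, 2-fold as a dashed line and the middle 50% of all genes kept in grey. Cdc6, Rrm2, Chaf1b, Mcm6 and Uhrf1 lie beyond 2, and equal totals move each gene to the right.

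Among the 38 genes, Cdc6 included, those with the largest ratios tended to have low control levels, which are the denominator of the ratio. Per kilobase of the longest GENCODE transcript, control levels ran from 0.433 for Cdc6 to 792 for Pcna, and scaled CKO levels from 12.4 to 1127 for the same genes. The ratio of the upper to the lower quartile of these levels was 4.03 for control and 2.65 for the library labelled CKO, so the levels lay closer together in the latter. Across the 38 genes, Spearman's rho between control level per kilobase and log2 ratio was -0.66, a description of genes that share the same libraries, in which the control level enters both quantities. The 11 genes with control values under 100 had a median log2 ratio of 1.03, with 6 at 2-fold or more. The 27 others had a median of 0.55, with 7 at 2-fold or more. Cdc6, which passed the filter only through the library labelled CKO, is among the 11 and the 6. The control value that made this division is also part of the ratio.

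In the MCM hexamer the differences in level varied less than the control levels, and with equal totals also less than the scaled CKO levels. Control levels per kilobase ran from 14.7 for Mcm6 to 244 for Mcm7, a range of 16.6-fold, and scaled CKO levels spanned 3.27-fold. The differences between scaled CKO and control level ran from 28.4 per kilobase for Mcm2 to 104 for Mcm5. This was a range of 3.66-fold, or 1.69-fold with equal totals. Ribonucleotide reductase was similar, since the level of Rrm1 was higher by 104 per kilobase and that of Rrm2 by 112, or by 185 and 156 with equal totals.

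The GINS control levels spanned 16.8-fold and the scaled CKO levels 9.58-fold, with Gins4 the highest of the tetramer at 345 and 375 per kilobase. The differences in GINS level spanned 3.89-fold, or 7.37-fold with equal totals. In polymerase alpha-primase the differences also spanned less than the levels, 2.10-fold beside 5.26-fold for control and 3.37-fold for scaled CKO levels. In CAF-1 they spanned more, since the level of Chaf1b was higher by 81.3 per kilobase and that of Chaf1a by 8.97, while control levels spanned 1.35-fold and scaled CKO levels 3.41-fold. The small RFC subunits had differences of both signs under the main scaling, from -36.3 per kilobase for Rfc2 to 81.2 for Rfc3, all above 0 with equal totals.

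**Figure D4:**
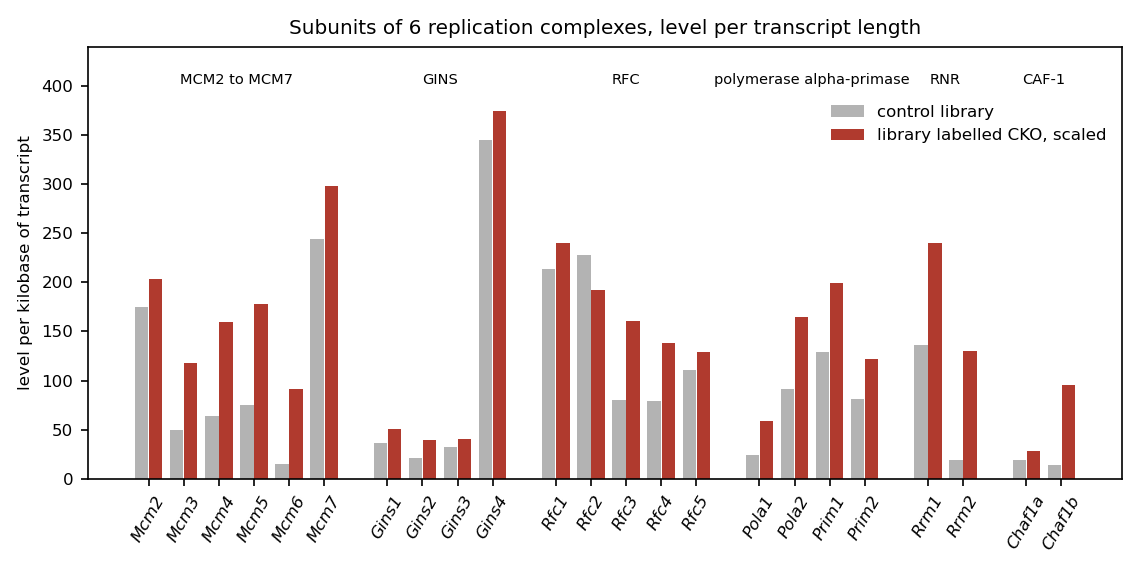
Level per kilobase of the longest transcript for the subunits of 6 replication complexes, grey for the control library and red for the scaled library labelled CKO (RNR, ribonucleotide reductase). The grey MCM bars differ by up to 16.6-fold, and Mcm6 and Rrm2 are low in grey and much higher in red.

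Some values are uncertain because of neighbouring or copied sequence. Exons of 13 of the 38 genes overlap exons of another annotated gene, 12 of them on the opposite strand only, and the kit was stranded but the strand setting of the counting was not stated. More than 500 shared bases were found for Gins2 with Gse1, Rfc2 with Lat2, Fen1 with Gm10143 and Chaf1a with Ubxn6. Pole2 overlaps Gm49384 on the same strand. Pcna and Tyms have annotated pseudogenes.

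In the lists that follow, Dscc1, E2f7, Ccne1, Aurkb, Bub1, Polq, Cd3e, Cd8a, Nkg7 and S100a8 passed the filter only through the library labelled CKO, where they were higher, and this group was picked out by its values. Without them the counts at 2-fold were 11 of 59 other replication genes, 1 of 11 E2F factors and pocket proteins, 2 of 4 S phase cyclins and regulators and 15 of 16 mitotic genes. The share over all genes, likewise without those kept only through that library, was 10.4% of 16628. Counts in the lists below stand beside 13.4% of all genes kept for 2-fold higher and 5.35% for 2-fold lower.

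Other genes of DNA replication, 61 in the list, had a lower median. Of the 60 analysed, which left out Ticrr, 12 reached 2-fold higher, 0 reached 2-fold lower and 38 were above 0. The shares of all genes kept were 13.4%, 5.35% and 51.5%. With equal totals 55 were above 0, and under the deposited values 57 were. Of the 17469 genes kept, 13879 and 15777 were above 0 under these settings, so most genes moved up with them. The median log2 ratio was 0.19, or 0.61 with equal totals. Pclaf, a PCNA-binding factor, was the highest, with values of 16 and 170 and a log2 ratio of 2.75 (2.08 to 3.66). Asf1b, a histone chaperone that feeds CAF-1, had values of 11 and 99, at 2.48 (1.68 to 3.63), and Clspn, the fork checkpoint adaptor, had values of 10 and 79, at 2.29 (1.44 to 3.51). Pole4, an accessory subunit of polymerase epsilon, was the lowest, with values of 1403 and 1148, at -0.87 (-0.99 to -0.76). It was also below 0 with equal totals and under the deposited values.

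Some genes act directly on or beside a DNA replication gene. Gmnn, the inhibitor of Cdt1, had values of 346 and 480 and a log2 ratio of -0.11 (-0.32 to 0.09), or 0.31 with equal totals, beside 1.03 for Cdt1. Rrm2b, the reductase subunit used outside S phase, had values of 1184 and 1500, at -0.24 (-0.35 to -0.13), or 0.18 with equal totals, beside 2.77 for Rrm2. Dnmt1, the methyltransferase that Uhrf1 recruits, had values of 761 and 1572, at 0.46 (0.34 to 0.59), beside 2.19 for Uhrf1. The origin recognition subunits Orc2, Orc3, Orc4 and Orc5, chosen after their values were seen, were at -0.07, -0.60, -0.09 and 0.02, or 0.35, -0.18, 0.33 and 0.44 with equal totals, beside 0.37 for Orc6.

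DNA polymerases of repair, bypass and mitochondria served as polymerases outside the fork. Of 12 kept by the filter, 1 reached 2-fold, against 13.4% of all genes kept, and their median was 0.23. Without Polq, 0 of 11 reached 2-fold. Polq, of end joining, was the highest, with values of 9 and 90, at 2.61 (1.75 to 3.91), followed by Polm at 0.78 and Polk at 0.64. Mad2l2 at -0.36 and Poll at -0.33 were the lowest, and with equal totals they were at 0.06 and 0.09.

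Of 12 E2F factors and pocket proteins analysed, which left out E2f8, 2 reached 2-fold, a share near the 13.4% of all genes kept. Their median was 0.21. E2f7, a repressor, had values of 7 and 37, at 1.68 (0.63 to 3.23). The activator E2f2 had values of 58 and 187, at 1.09 (0.67 to 1.55), and E2f1 had values of 64 and 178, at 0.88 (0.47 to 1.33). E2f5 was at -0.48, or -0.06 with equal totals and 0.12 under the deposited values, and the pocket protein Rbl2 at -0.33, or 0.09 and 0.26.

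Of 5 S phase cyclins and their regulators, 3 reached 2-fold, with a median of 1.72. Ccne1, of entry into S phase, had values of 7 and 75, at 2.67 (1.72 to 4.20). Ccne2 had values of 14 and 121, at 2.44 (1.72 to 3.44), and Ccna2 had values of 72 and 360, at 1.72 (1.37 to 2.12). Their kinase Cdk2 was at 0.71 and the phosphatase Cdc25a at 0.14 (-0.05 to 0.32).

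Mitotic genes had a higher median ratio than the DNA replication genes. Of 18, 17 reached 2-fold and 18 had intervals above 0, with a median of 2.81, or 3.23 with equal totals and 2.07 under the deposited values. Cenpf had values of 14 and 215, at 3.27 (2.58 to 4.25), Cdk1 of 24 and 327, at 3.13 (2.58 to 3.85), and Bub1b of 10 and 134, at 3.04 (2.24 to 4.25). Mki67, a common marker of dividing cells, had values of 86 and 1041 and a log2 ratio with the interval (2.69 to 3.35), and Top2a had values of 55 and 641, at 2.94 (2.56 to 3.38). Cenpe at 0.64 and Birc5 at 1.55 were the lowest. Each of the 18 had a control value under 100, beside the median of 1.03 for the 11 DNA replication genes under that value. Summed mitotic values were 558 and 4750, a scaled sum higher by 5.68-fold, beside 1.45-fold for the DNA replication genes.

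**Figure D5:**
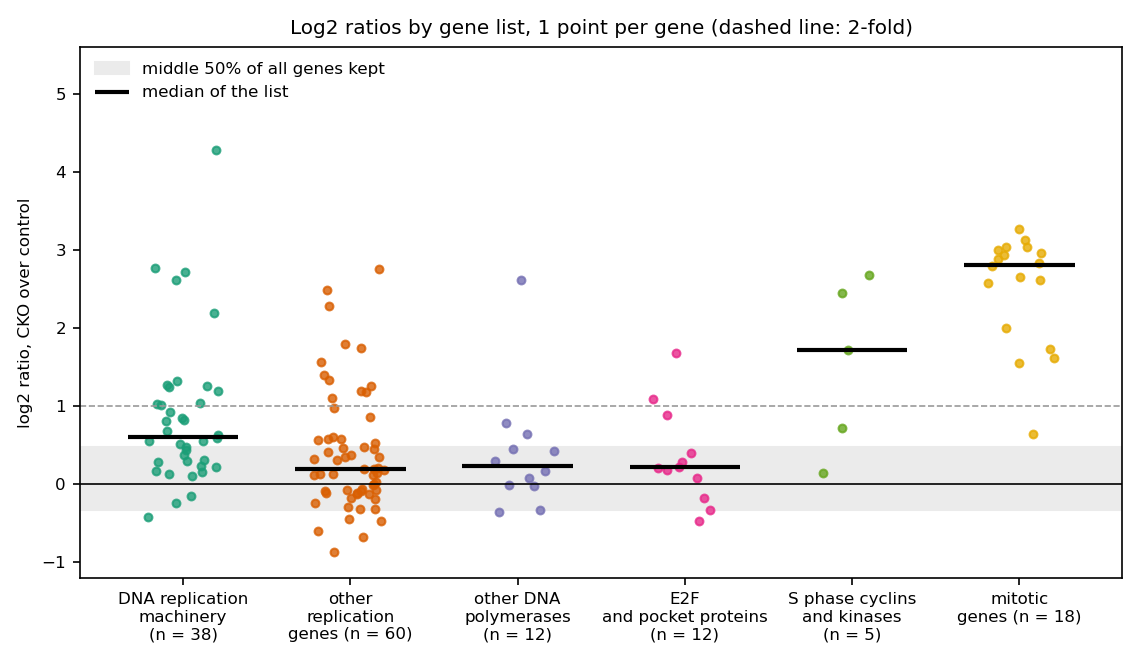
Log2 ratio of each gene kept by the filter in 6 gene lists, with the list median as a black line, 2-fold as a dashed line and the middle 50% of all genes kept in grey. The DNA replication genes spread from -0.43 to 4.28 around a median of 0.61, and the mitotic genes from 0.64 to 3.27 around 2.81.

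Some markers of cell types and of tubule injury also differed between the libraries. Of 12 proximal tubule markers, 3 reached 2-fold lower and 11 were below 0, against 5.35% and 8432 of the 17469 genes kept. With equal totals 1 reached 2-fold lower and 3 were above 0, and under the deposited values 1 and 5. Of all genes then kept, 437 of 17682 and 131 of 20002 reached 2-fold lower. The median was -0.76, or -0.35 with equal totals and -0.18 under the deposited values. Their sums were 576365 and 484393, and Slc34a1, the phosphate transporter, was the most abundant in both libraries, so the labelled tissue showed its defining markers. Slc5a12 at 0.41, Slc22a8 at -0.08 and Cubn at -0.37 were the highest, and Slc22a6 at -1.62 and Slc34a1 at -1.17 the lowest, while with equal totals Slc22a8 was at 0.34 and Cubn at 0.05. Of 18 markers of other nephron segments, vessels and stroma, 2 reached 2-fold higher, against 13.4% of all genes kept. Their median was 0.01. Their sums were 168308 and 308195, with Umod the most abundant. Col1a1 at 2.65, Dcn at 1.69 and Aqp2 at 0.79 were the highest, and Kdr at -0.67 was among the lowest.

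Of 13 macrophage markers analysed, 11 reached 2-fold higher, with a median of 2.58 and sums of 5785 and 30942. Csf1r was the most abundant in the control library and Lyz2 in the library labelled CKO. Lyz2 at 3.66, Fcgr1 at 3.48 and Itgam at 3.05 were the highest, and Mertk at -0.32, or 0.10 with equal totals, and Csf1r at 0.51 the lowest. Of 10 lymphocyte markers, 6 reached 2-fold higher, with a median of 1.18 and sums of 214 and 541, led by Trac. Without Cd3e, Cd8a and Nkg7, 3 of 7 reached 2-fold, with a median of 0.89. Cd3g at 2.22, Cd8a at 1.99 and Cd3e at 1.72 were the highest, and Ncr1 at -0.46 and Trac at -0.44 the lowest, or -0.07 and -0.03 with equal totals and 0.42 and 0.26 under the deposited values. Of 7 neutrophil and erythroid markers, 1 reached 2-fold higher, a share near the 13.4% of all genes kept. Their median was 0.08, with sums of 11750 and 17709, led by Hbb-bs. S100a9 at 1.64, S100a8 at 0.77 and Alas2 at 0.09 were the highest, and Hba-a1 at -0.02 and Hbb-bs at -0.01 the lowest, or 0.40 and 0.41 with equal totals.

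Of 9 injured tubule markers, 8 reached 2-fold higher, with a median of 3.67 and sums of 25430 and 499100, led by Spp1. Lcn2 at 6.45, Spp1 at 4.16 and Cd44 at 3.93 were the highest, and Krt8 at 0.45 and Krt18 at 2.04 the lowest. No marker analysed had a value of 3 or less in either library. Cd163, Cd3d, Cd8b1, Cd79a, Ms4a1, Ly6g, Mpo, Elane, Camp and Krt20 were not analysed here. Some of these markers differed alongside the DNA replication genes, and their part in the result was not tested. Which cells carried the replication transcripts was not tested.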

How the data were processed

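Whole kidney RNA-seq (TruSeq Stranded mRNA) gave 1 control and 1 Reg-2 CKO library. For alignment the authors used STAR 2.7.3a (mm10 in the submitters' notes), for counting HTSeq and for normalization DESeq2. The deposited values, whole numbers above a floor in each column, match no standard unit and are called a score here. FPKM values (Cufflinks 2.2.1) were not used here.

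The column minimum minus 1 was subtracted, CKO values were scaled by the median gene ratio of 0.667, and log2((CKO + 1)/(control + 1)) was computed. Genes needed at least 10 scaled values in 1 library, and the threshold was 2-fold. The 95% Clopper-Pearson interval of a ratio used the CKO part of the sum over both libraries. No test between groups was possible with 1 library each. The calculation was tested on simulated data.

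The members and lists were chosen with earlier results of these data known. All members were named, with the 3 highest and 2 lowest ratios of each other list, Zc3h12b, Mki67, Top2a, Dnmt1, Gmnn, E2f1, E2f2, E2f7, E2f8 and Rrm2b, the most abundant gene of each marker list per library and any marker at 3 or less. Some genes this rule names are not reported here. Recombination and other repair lists, promoter words (4 sets tried) and the division at a control value of 100 were added after the data were seen. Alternatives were equal totals, equal upper quartiles, the values as deposited, subtraction of the full column minimum, pseudocounts of 0.1 and 10, a filter of 50 or none, and thresholds of 1.5-fold and 4-fold. Lengths, locations and exon overlaps came from GENCODE M21, and promoter windows from RefSeq (GRCm38.p6). Python 3.11.15, numpy 2.4.6, pandas 2.3.3, scipy 1.17.1 and matplotlib 3.10.9 were run.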

Additional observations from a re-analysis of the deposited data

How the results depend on the processing

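No paired analysis was possible because the groups held only 1 library apiece. The count of DNA replication genes higher by 2-fold or more was 13. Equal totals gave 20 and the deposited values 23, while thresholds of 1.5-fold and 4-fold gave 20 and 5, as thresholds do by construction. Under equal upper quartiles, the full column minimum, other pseudocounts and other filters it lay between 10 and 13. Genes with control values under 100, Cdc6 among them, gave 6 from fewer genes, by a division chosen after seeing the data. The median log2 ratio of 0.61 was 1.03 with equal totals, 1.11 under the deposited values and 1.03 for genes with control values under 100. The 12 other replication genes past 2-fold became 19 under the deposited values and 3 at 4-fold. Apart from the rescaling, the cause was not tested.

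Of 228 log2 ratios of DNA replication genes under these alternatives, 163 stayed within the counting interval and 65 did not, 33 of them with equal totals and 31 under the deposited values. Equal totals changed the sign of 2 genes and the deposited values that of 3. A pseudocount of 10 took Cdt1, Rfc3 and Pole below 2-fold, and the full column minimum took Rfc3. The changed signs were those of Rfc2 and Dut, and under the deposited values also of Mcm10. All 3 were below 0 under the main scaling, so these small ratios below 0 have no fixed sign. Each ratio above 0 stayed above 0 under these alternatives, but this was close to fixed in advance. Equal totals, equal upper quartiles and the deposited values used CKO factors of 0.891, 0.702 and 1 in place of 0.667. A changed pseudocount cannot change a sign, so the kept signs do not show how firm these ratios are. Few reads, above all for Cdc6, limit how well a ratio is known.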

Other observations

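Genes of homologous recombination and of the Fanconi anaemia pathway, which repair broken or crosslinked DNA and protect stalled forks, were compared with genes of other repair pathways. Both lists were written after the values of the replication genes were seen, and their division is not clean. Rad50, Mre11a and Nbn, which also act in recombination, and the kinase Atm stood among the other repair genes, with log2 ratios of 0.62, 0.22, -0.06 (0.35 with equal totals) and 0.25. Rad18, of lesion bypass, and the checkpoint kinase Chek1 stood among the recombination and Fanconi genes, at 1.76 and 1.75. These genes were named after their values were seen, and other divisions were not tested. Of 19 recombination and Fanconi genes analysed, which left out Eme1, 12 were higher by 2-fold or more in the library labelled CKO. The share of all genes kept was 13.4%. The median log2 ratio of the 19 was 1.55. Brca1 had values of 16 and 142 (control, then CKO) and a log2 ratio of 2.49 with a 95% interval for counting error of (1.82 to 3.41). Rad54b had values of 9 and 70, at 2.25 (1.37 to 3.56). Brip1 at -0.24 and Xrcc2 at -0.22 were the lowest, or 0.18 and 0.20 with equal totals.

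Of 20 genes of other repair pathways, 0 reached 2-fold, against 13.4% of all genes kept, with a median of 0.01. Ercc1 at 0.76, Rad50 at 0.62 and Pms2 at 0.55 were the highest, and Xrcc1 at -0.32 and Xpc at -0.30 the lowest, or 0.10 and 0.12 with equal totals. With equal totals the counts at 2-fold were 15 of 19 and 2 of 20, against 21.9% of all genes then kept. Median control values were 28 for the recombination and Fanconi genes and 622.5 for the other repair genes, so the lists also differed in depth. Rad54b and Exo1 passed the filter only through the library labelled CKO. Without them 10 of 17 recombination and Fanconi genes reached 2-fold, with a median of 1.01. The share of all genes without those kept only in this way was 10.4%. Shorter E2F words were in 8 of 16 promoter windows of the recombination and Fanconi genes and 8 of 15 windows of the other repair genes.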
